A study of Mus musculus with 8 samples.

Results

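The interferon-stimulated genes Irf7, Ifit1, Ifit2, Ifit3, Mx1, Oasl2, Rsad2, Ifi44, Isg15 and Usp18 were followed lung by lung in untreated mice. They were taken by gene symbol from the annotated matrix, are 10 of the 20920 gene symbols on the array and are represented by 15 of its 41174 probes. The lungs came from 4 wild-type and 4 Scgb3a2-transgenic mice, C57BL/6 males of 8 to 10 weeks per the labels and approximately 8 weeks per the methods, and no animal was treated. The transgene carries the mouse Scgb3a2 cDNA behind the human surfactant protein C promoter, which is active in alveolar type II cells, and was injected into C57BL/6NCr eggs. The study describes 1 founder with high expression in lung, so that an effect of the insertion site and of the transgene cannot be told apart, and the sources used here do not say whether the wild-type mice were littermates. Each array compared the RNA of 1 lung, labeled with Cy5, with a reference pool labeled with Cy3, so every value below is a log2 ratio of lung to pool unless a difference or a fold is named. In whole lung, more cells of a type and more RNA per cell cannot be told apart.

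Interferons are secreted when cells sense viral or other nucleic acids, and they act on neighboring cells through surface receptors, receptor-bound kinases and transcription factors. These factors bind a DNA element, the interferon-stimulated response element, in front of a common set of target genes, many of which block virus replication. In lung these genes are known for their induction by respiratory viruses, and they also have a low tonic activity without infection.

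The RefSeq promoter windows of GRCm38.p6, which run from 250 bases before to 50 bases after a gene's start, were available for 8 of the 10 genes. The response element was searched on both strands as GAAA, any 2 bases and GAAA again. It was found in the windows of 4 genes, Ifit1, Ifit3, Isg15 and Rsad2, while 3.44% of all 32851 windows hold it. A shorter form that overlaps it, GAAANNGA, occurred in 6 of the 8 genes and in 21% of all windows. The 160 bases before the start are shown for the 4 genes chosen for holding the longer element, read along the gene, with each match in capitals. They lie at chr19:34640729-34640888 on the plus strand for Ifit1, chr19:34583369-34583528 on the plus strand for Ifit3, chr4:156200819-156200978 on the minus strand for Isg15 and chr12:26456453-26456612 on the minus strand for Rsad2. For Ifit3 the start that RefSeq's window is set on lies inside the annotated span of the gene, so the stretch shown does as well, while the other stretches end where the annotated gene begins.
Ifit1: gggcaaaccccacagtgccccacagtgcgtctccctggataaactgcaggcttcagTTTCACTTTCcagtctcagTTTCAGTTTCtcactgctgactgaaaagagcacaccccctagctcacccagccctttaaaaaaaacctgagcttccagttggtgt
Ifit3: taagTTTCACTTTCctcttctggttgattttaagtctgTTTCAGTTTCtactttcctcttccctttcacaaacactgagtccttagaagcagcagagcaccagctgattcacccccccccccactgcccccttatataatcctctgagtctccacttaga
Isg15: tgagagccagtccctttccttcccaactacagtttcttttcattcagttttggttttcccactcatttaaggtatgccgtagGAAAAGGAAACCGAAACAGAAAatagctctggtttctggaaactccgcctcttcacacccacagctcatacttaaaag
Rsad2: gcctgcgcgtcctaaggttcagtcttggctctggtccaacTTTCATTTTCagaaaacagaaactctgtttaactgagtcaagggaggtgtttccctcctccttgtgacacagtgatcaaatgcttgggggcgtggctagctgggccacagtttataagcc
In Ifit1 and Ifit3 the element occurs as 2 separate matches on the opposite strand, which read TTTC at both ends. In Isg15, 3 matches overlap each other along the gene's strand and read as 1 run of capitals. A match is a run of letters, and binding was not measured.

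Median Cy5 spot signals of the 8 arrays were 204 to 277.5, and 32271 to 34720 probes per array were well above background. Scgb3a2, the transgene, was at 0.01, -0.39, 0.58 and -0.56 in wild-type replicates 1 to 4 and at 1.26, 0.47, 0.70 and 0.74 in transgenic replicates 1 to 4, so that the genotypes overlapped by 1 array of each. All 6 lung marker genes (Sftpc, Sftpb, Sftpa1, Scgb1a1, Ager and Pecam1) were well above background on all 8 arrays. Each of 4 slides carried 1 array of each genotype, and the slides were scanned on 2 days. Of the 15 probes of the interferon-stimulated genes, 13 were well above background on all 8 arrays and were tested with limma. The second probes of Mx1 and Ifi44 were well above background on 1 and 3 arrays and were not tested. Outlier flags removed 3 values of Oasl2 and 1 of Ifit3, and no other value of these probes. Where a gene had several probes, the brightest was used and the others are given beside it.

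No interferon-stimulated gene differed between the genotypes after adjustment. Of the 13 probes tested, 7 lay higher in the transgenic lungs and 6 lower. Their median difference was 0.03 on the log2 scale, against 0.00 over all 32653 probes tested. The split depended on the scaling, with 4 higher and 9 lower under median-centring or in the sample channel alone and 9 higher and 4 lower with Agilent's processed signals or the authors' matrix. None of the 13 had an adjusted p under 0.05 (limma, Benjamini-Hochberg), as was the case for 0% of all probes. At the unadjusted threshold of 0.05, 1 probe (that of Oasl2) passed as higher, as did 1.12% of all probes, and 0 passed as lower, as did 0.974% of all probes. The 13 differences ranged from -0.11 for Ifit3 to 0.50 for Oasl2. In fold, the 95% confidence intervals of Irf7, Isg15, Usp18, Ifit2 and Ifit3 lay between 0.771 and 1.26. The upper limits of Ifit1, Mx1, Ifi44, Rsad2 and Oasl2 ran from 1.31 for Ifit1 to 1.86 for Oasl2, and their lower limits from 0.710 for Ifit1 to 1.08 for Oasl2. The precision is limited by the 4 lungs per genotype. Scgb3a2 itself, 1.84-fold higher in transgenic lungs (log2 difference 0.88, standard error 0.24; limma, unadjusted p = 0.0033), did not pass the adjusted threshold either.

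**Figure D1:**
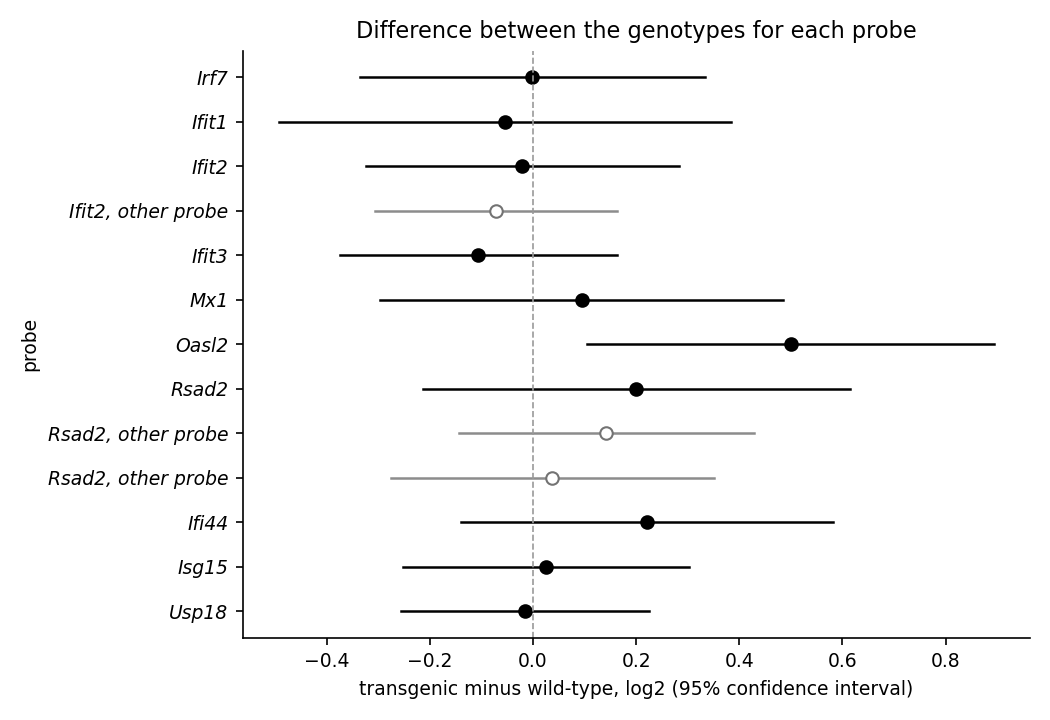
Difference between transgenic and wild-type lungs (log2, x axis) for each tested probe of the 10 genes, with its 95% confidence interval from limma. Filled points are each gene's brightest probe and open points its other probes. Only the interval of Oasl2, from 0.11 to 0.89, lies to 1 side of 0.

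Irf7, the transcription factor that amplifies type I interferon production, lies at chr7:141263183-141266499. Its log2 ratio to the pool was -1.21, -0.85, -1.36 and -0.68 in wild-type replicates 1 to 4 and -1.21, -1.015, -0.86 and -1.016 in transgenic replicates 1 to 4. All 8 lungs were below the pool, and the 4 transgenic values lay within the range of the wild-type values. The means were -1.02 ± 0.32 (SD, n = 4) and -1.03 ± 0.14 (SD, n = 4), a difference of 0.00 with a 95% confidence interval from -0.34 to 0.33 (limma, unadjusted p = 0.994). In fold, that interval runs from 0.792 to 1.26.

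Ifit1, Ifit2 and Ifit3 encode interferon-induced proteins with tetratricopeptide repeats that bind viral RNA, and they lie close together at chr19:34640889-34650009, chr19:34550550-34576534 and chr19:34583119-34588982. Ifit1 was at -0.31, -0.60, -1.12 and -0.54 in wild-type and at -1.18, -0.72, -0.55 and -0.33 in transgenic replicates 1 to 4. The lowest lungs of the genotypes, at -1.12 and -1.18, and the highest, at -0.31 and -0.33, lay side by side. The difference of -0.05 (standard error 0.20; limma, unadjusted p = 0.791) was well inside a range of 0.87 over the 8 lungs.
Ifit2 was at -0.70, -0.35, -0.44 and -0.30 in wild-type and at -0.79, -0.21, -0.44 and -0.45 in transgenic replicates 1 to 4, a difference of -0.02 (standard error 0.14; limma, unadjusted p = 0.882). Its second probe gave -0.07 (standard error 0.11), and the probes of this gene differed by up to 0.47 on a single array. Transgenic replicate 1 was the lowest lung by the brighter probe and transgenic replicate 3 by the other, so the order of the lungs for Ifit2 depends on the probe.
Ifit3 was at 0.02, -0.28, 0.03 and 0.00 in wild-type replicates 1 to 4 and at -0.29, -0.07 and -0.12 in transgenic replicates 1 to 3. The value of transgenic replicate 4 was left out for an uneven spot, and was 0.10 with flagged spots kept. The difference was -0.11 (standard error 0.12; limma, unadjusted p = 0.399), and -0.02 with flagged spots kept. Ifit3 has a near-identical neighbor, Ifit3b, and whether the probe also measures it was not tested.

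Mx1, Oasl2, Rsad2 and Ifi44 include the better known antiviral effectors. Mx1, a dynamin-like GTPase that blocks influenza virus in the nucleus, lies at chr16:97447035-97462906 and is annotated in the C57BL/6J reference as a transcribed pseudogene. It was at 0.36, -0.01, -0.34 and 0.35 in wild-type and at 0.57, 0.03, -0.01 and 0.13 in transgenic replicates 1 to 4. The highest and the lowest lung were of opposite genotype, and the remaining lungs were mixed. The difference was 0.09 (standard error 0.18; limma, unadjusted p = 0.607). Of the 10 genes by brightest probe, only Mx1 had a mean above the pool, at 0.13 over the 8 lungs, and its dim second probe was below the pool on every array.
Oasl2, a member of the oligoadenylate synthetase family, lies at chr5:114896926-114912245. It was at -0.31 and -0.72 in wild-type replicates 2 and 3 and at 0.15, -0.13 and -0.06 in transgenic replicates 1, 2 and 4. The other 3 lungs (wild-type replicates 1 and 4 and transgenic replicate 3) had uneven spots and were left out. The remaining values did not overlap between genotypes, which also held for 1.97% of all probes, whatever their number of values. That share is no like comparison, because 2 against 3 values separate more easily than 4 against 4. The difference was 0.50 (standard error 0.17), a 1.41-fold higher level in transgenic lungs. By limma the unadjusted p was 0.019 and the adjusted p was 1. An exact two-sided permutation test gave p = 0.1, the smallest that 2 against 3 lungs allow.
With flagged spots kept, an alternative chosen after the values were seen, the wild-type replicates 1 and 4 of Oasl2 stood at 0.01 and 0.24 and transgenic replicate 3 at 0.12. The genotypes then overlapped, the difference was 0.21 and the unadjusted p was 0.275 by limma. The authors' matrix, which also keeps these spots, gave 0.17. A block for the replicate number, under which only the pair of number 2 was complete, also gave 0.17 (limma, unadjusted p = 0.494).
Rsad2 encodes viperin, a radical SAM enzyme that stops virus replication by making a chain-terminating nucleotide, and lies at chr12:26442743-26456452. Its brightest probe was at -0.72, -0.99, -0.64 and -0.27 in wild-type and at -0.36, 0.00, -0.72 and -0.74 in transgenic replicates 1 to 4. Transgenic replicate 2 was the highest lung and the other transgenic lungs lay among the wild-type lungs. The difference was 0.20 (standard error 0.19; limma, unadjusted p = 0.31), and the other 2 probes gave 0.14 and 0.04.
Ifi44, an interferon-induced protein of the cytoplasm, lies at chr3:151730922-151749910. It was at 0.05, -0.13, -0.32 and -0.22 in wild-type and at 0.59, -0.13, -0.13 and -0.06 in transgenic replicates 1 to 4. The difference was 0.22 (standard error 0.16; limma, unadjusted p = 0.204), and 0.05 without transgenic replicate 1, the highest lung. Its dim second probe, which was not tested, had transgenic replicate 1 as the lowest lung, at -0.28.

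Isg15 and Usp18 form a pair in which ISG15 is a ubiquitin-like protein that is attached to other proteins and USP18 removes it again. USP18 also dampens signaling at the type I interferon receptor. Isg15 lies at chr4:156199424-156200818 and was at -0.57, -0.76, -0.92 and -0.40 in wild-type and at -0.78, -0.60, -0.68 and -0.49 in transgenic replicates 1 to 4. All transgenic values lay within the wild-type range, with a difference of 0.03 (standard error 0.13; limma, unadjusted p = 0.845). Usp18 lies at chr6:121245906-121270917 and was at -0.47, -0.52, -0.28 and -0.46 in wild-type and at -0.36, -0.68, -0.33 and -0.43 in transgenic replicates 1 to 4. Its difference was -0.02 (standard error 0.11; limma, unadjusted p = 0.886). Isg15 and Usp18 did not share an order of the lungs, since wild-type replicate 3 was the lowest of all for Isg15 and the highest of all for Usp18.

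**Figure D2:**
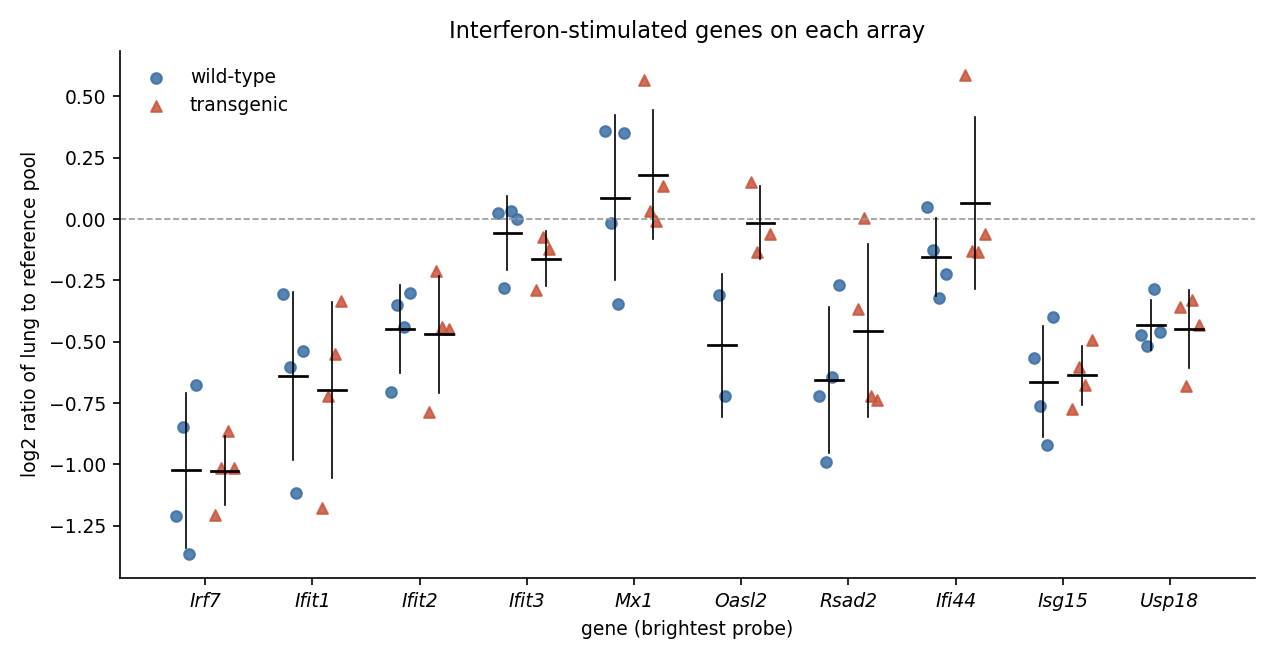
Log2 ratio of lung to reference pool (y axis) for the brightest probe of each gene. Each point is 1 array, circles are wild-type and triangles transgenic lungs, horizontal bars are means and vertical lines 1 SD, and the dashed line is the pool. Irf7 is the furthest below the pool, and the genotypes overlap for every gene but Oasl2, of which 3 arrays were flagged.

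The 8 lungs were not ordered alike by the 10 genes. Transgenic replicate 1 was the highest lung for Mx1, Oasl2 and Ifi44 and the lowest for Ifit1, Ifit2 and Ifit3. Wild-type replicate 3 was the lowest for Irf7, Mx1, Oasl2, Ifi44 and Isg15 and the highest for Ifit3 and Usp18. Transgenic replicates 3 and 4 were neither the highest nor the lowest for the 9 genes with a value in each, which leaves out Oasl2 in the former and Ifit3 in the latter. With flagged spots kept, transgenic replicate 4 was the highest lung for Ifit3.
Averaged over the genes, after each was centered on its own mean, the lungs ranged from -0.21 for wild-type replicate 3 to 0.14 for wild-type replicate 4, while the transgenic lungs lay between 0.00 and 0.05. The extremes of this average were therefore both wild-type.

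**Figure D3:**
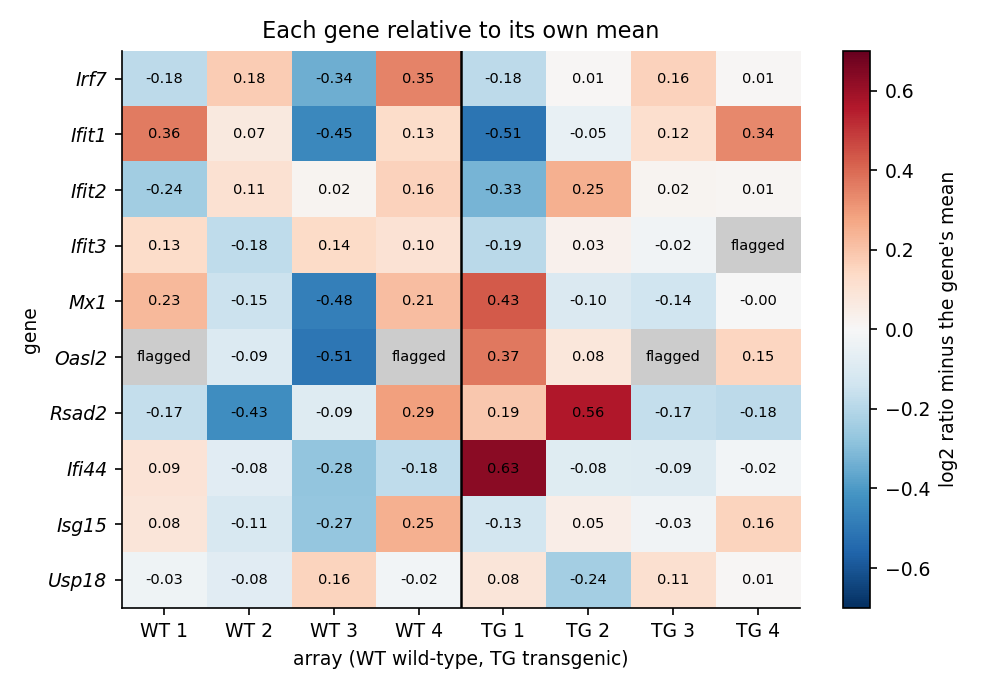
Log2 ratio of each gene (rows, brightest probe) on each array (columns, WT wild-type and TG transgenic), minus that gene's mean over the arrays. Red is above and blue below the gene's mean, and gray fields are flagged spots. Transgenic replicate 1 holds both the highest values of Mx1, Oasl2 and Ifi44 and the lowest of Ifit1, Ifit2 and Ifit3.

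The spread over the lungs also differed from gene to gene. By brightest probe, the SD of the log2 ratio over the arrays was 0.33 for Ifit1, 0.33 for Oasl2 and 0.32 for Rsad2, larger than that of 92.5%, 92.7% and 91.9% of all probes tested. The other tested probes of Rsad2 had an SD of 0.19 and 0.21, larger than only 57.9% and 64.3% of probes, so its spread depends on the probe. For Oasl2 the SD rests on 5 arrays and includes the difference between the genotypes. For Mx1 and Ifi44 it was 0.28, larger than 86.8% and 85.6% of probes. At the other end, Usp18 and Ifit3 had an SD of 0.12 and 0.14, larger than only 20.7% and 28.2% of probes, and the median over all probes was 0.18. Irf7, Ifit2 and Isg15 lay between, at 0.23, 0.20 and 0.17, and the second Ifit2 probe was at 0.12.

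The values were also set side by side by scan day. For Irf7 the 4 lungs scanned on the first day lay between -1.36 and -1.016 and those of the second day between -1.015 and -0.68. For Ifit2 they lay between -0.79 and -0.441 on the first day and between -0.439 and -0.21 on the second. In both genes the days nearly touch but do not overlap, while the second Ifit2 probe overlapped. These were 2 of the 13 probes tested, where the days did not overlap for 7.72% of all probes and the first day was the lower for 3.74%, and nothing is read from so small a count. Each day held 2 lungs of each genotype. Within the days the transgenic minus wild-type difference of Irf7 was 0.17 and -0.18, that of Mx1 was 0.34 and -0.15 and that of Ifi44 was 0.40 and 0.04. Within slides, which pair 1 lung of each genotype, no gene with values on all 4 slides had the same sign on all of them. Oasl2, with a pair on 2 slides, was higher in the transgenic lung on both, by 0.17 and 0.66. What else was done on the scan days was not given in the sources used here.

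Of the 13 probes, 12 were below the reference pool on average, with a median log2 ratio of -0.41 against 0.01 over all probes tested. The 6 probes of Irf7, Ifit1, Ifit2, Isg15 and Usp18 were below the pool on every array, as were 20.4% of all probes, and 0 were above it on every array, as were 21.9% of all probes. Averaged as a linear ratio over the 8 lungs, by brightest probe, Irf7 was at 0.497 of the pool, Isg15 at 0.641, Ifit1 at 0.643, Rsad2 at 0.696, Ifit2 at 0.733 and Usp18 at 0.739. The other tested probes of Rsad2 were at 0.823 and 0.865 and that of Ifit2 at 0.753. Oasl2, Ifit3, Ifi44 and Mx1 were at 0.879, 0.936, 0.987 and 1.12. Over all probes the median was 1.01 and the 5th percentile 0.683, below which Irf7, Isg15 and Ifit1 lay. The methods describe the pool as equal amounts of RNA from each sample, and the labels only as pooled lung. No array had the dyes swapped, so a ratio to the pool and an effect of the dyes cannot be told apart, while the comparison of genotypes does not depend on it.

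The other genes of the pathway were taken in lists by role. Of all 32653 probes tested, 16441 lay higher in transgenic lungs, and 2.09% passed the unadjusted threshold in either direction. The ligands had 13 of 19 genes on the array, and 6 of the 14 probes tested lay higher in transgenic lungs and 8 lower (8 and 6 in the sample channel alone). Their median difference was -0.04, and 0 passed the unadjusted threshold by limma. The interferons furthest from no difference were Ifna5, at -0.21 (standard error 0.20; limma, unadjusted p = 0.312), and Ifnl3, a type III interferon, at -0.19 (standard error 0.12; limma, unadjusted p = 0.157). Only 10 of the 15 ligand probes were well above background on all 8 arrays. For the receptors and their signaling proteins, 16 of 20 probes were higher (12 under median-centring or in the sample channel alone), the median was 0.11 and again 0 passed. Both chains of the type I receptor led this list, with Ifnar1 at 0.19 (standard error 0.11) and Ifnar2 at 0.18 (standard error 0.14). The median was 0.13 over the 23 probes of sensors and inducing factors, of which 19 were higher (13 under median-centring, 15 in the sample channel alone and 16 of 24 in the authors' matrix). Without wild-type replicate 3, 14 of 22 were higher and the median was 0.03, as it was in the authors' matrix. Here 1 probe passed without adjustment, that of Tmem173, which encodes the DNA sensing adaptor STING, at 0.35 (standard error 0.14; limma, unadjusted p = 0.0296, adjusted p = 1) from 3 wild-type and 2 transgenic lungs. No sensor probe passed with flagged spots kept, offset 0, median-centring, the sample channel alone, normexp fitted on all spots or the replicate block, nor without wild-type replicate 1, wild-type replicate 3 or transgenic replicate 2. Ddx58, the RNA sensor RIG-I, was at 0.34 by its brightest probe (standard error 0.17; limma, unadjusted p = 0.0833) from 2 wild-type and 4 transgenic lungs. Its other tested probes, with values in 4 lungs of each genotype, gave only 0.07, 0.04 and 0.03.

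The other effectors of type I interferon were the closest in kind to the 10 genes. Their 71 tested probes had a median difference of 0.04, against 0.03 for the 10 genes, and 44 of them lay higher (29 under median-centring, where the median was -0.02, and 36 in the sample channel alone). The 1 probe past the unadjusted threshold was lower in transgenic lungs, that of Ifi205, a member of the HIN-200 family of DNA binding proteins, at -0.30 (standard error 0.12; limma, unadjusted p = 0.0302, adjusted p = 1). Bst2, or tetherin, which holds budding viruses on the cell surface, was at 0.36 (standard error 0.16; limma, unadjusted p = 0.0555) from 2 and 3 lungs. Among the negative regulators, 6 of 9 probes were higher with a median of 0.08 (4 of 9 under median-centring, where the median was -0.02). Socs1, an inhibitor of the JAK kinases, was at 0.17 (standard error 0.16). Pias1, a SUMO ligase, was at -0.19 (standard error 0.31) from 2 wild-type and 3 transgenic lungs, and its other probe at -0.11 (standard error 0.12). A dim probe of the phosphatase gene Ptpn6 was past the unadjusted threshold at 0.25 (standard error 0.09; limma, unadjusted p = 0.0215), while its brightest probe was at 0.14 (standard error 0.14; limma, unadjusted p = 0.332).

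Targets known mainly for interferon gamma had other counts than the 10 genes. Among 28 probes tested, 26 lay higher in transgenic lungs (24 under median-centring or in the sample channel alone), and the median difference was 0.25. The unadjusted threshold was passed by 6, all of them higher, and by 1.12% of all probes as higher and 2.09% in either direction. None passed after adjustment (limma, adjusted p = 1 for each). The 6 were Psmb10 at 0.30 (standard error 0.11), Irf8 by both probes at 0.30 and 0.29 (standard error 0.13 for each), Ciita at 0.36 (standard error 0.15), Gbp2 at 0.38 (standard error 0.17) and the less bright of the Psmb8 probes at 0.36 (standard error 0.16). The brightest Psmb8 probe was at 0.25 (standard error 0.14; limma, unadjusted p = 0.103). Psmb8 and Psmb10 encode subunits of the immunoproteasome, Ciita the activator of MHC class II genes, Irf8 a transcription factor of myeloid and B cells, and Gbp2 a guanylate binding protein. Igtp and Gbp4, both GTPases, had the largest differences, 0.46 (standard error 0.21; limma, unadjusted p = 0.0514) and 0.40 (standard error 0.18; limma, unadjusted p = 0.0525).
Wild-type replicate 3 was the lowest lung of this list, with a mean over its 21 genes of -0.68, against -0.29 to -0.05 in the other wild-type lungs and -0.17 to 0.10 in the transgenic lungs. Without that lung 17 of 27 probes were higher, the median was 0.10 and 1 probe passed the unadjusted threshold. That number was also 1 without wild-type replicate 2 or transgenic replicate 2, with the methods' t-test or in the sample channel alone. It was 2 with offset 0 and 3 with normexp fitted on all spots or without transgenic replicate 3. Under median-centring, with Agilent's processed signals or in the authors' matrix it was 0. On the 4 slides the median difference of the list was -0.09, 0.38, 0.80 and -0.03.

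**Figure D4:**
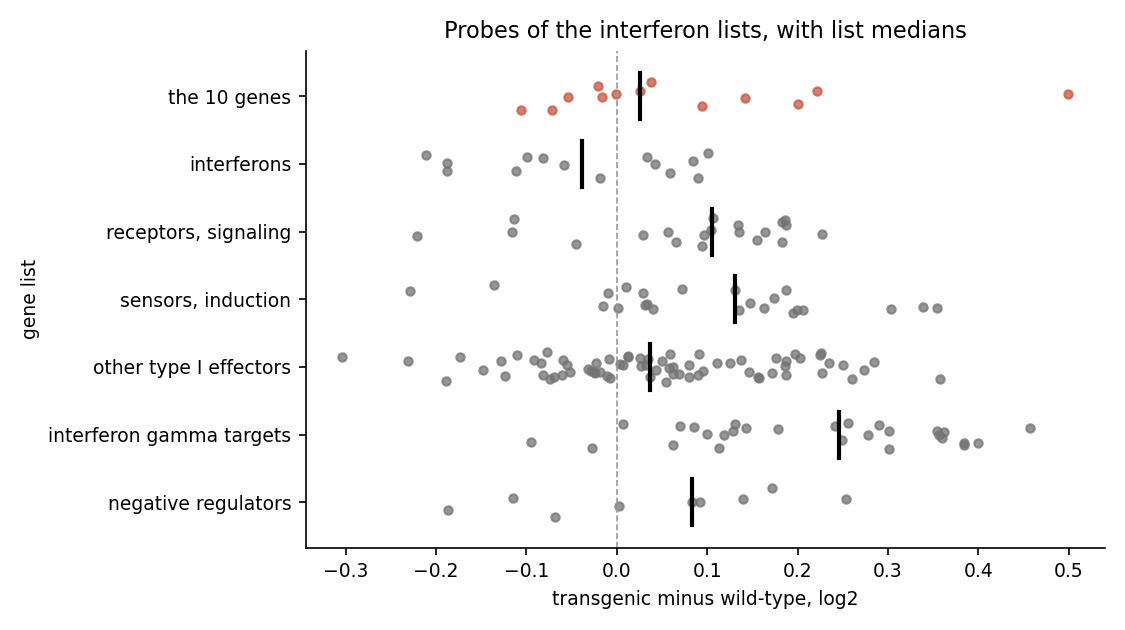
Transgenic minus wild-type difference (log2, x axis) for every tested probe of the 10 genes and of the 6 other interferon lists. Each point is 1 probe, its height within a row is arbitrary, and black bars are medians. The median is 0.03 for the 10 genes and 0.25 for the interferon gamma targets.

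Genes of other cell types varied between the same lungs. For comparison, 16441 of all 32653 probes tested lay higher in transgenic lungs. The unadjusted threshold was passed by 1.12% of all probes as higher and by 0.974% as lower. B cell markers were higher in transgenic lungs for 6 of 7 probes (median difference 0.42, 2 past the unadjusted threshold), with a mean log2 ratio of -0.60 to 0.05 over the wild-type and -0.29 to 0.49 over the transgenic lungs. T cell markers were higher for 7 of 9 probes (1 past the unadjusted threshold, that of Cd2), with means of -0.33 to -0.04 and -0.26 to 0.26. The 6 lung markers were all lower, by a median of 0.42 in size (1 past the unadjusted threshold), with means of 0.46 to 1.52 in wild-type and -0.19 to 0.75 in transgenic lungs. Wild-type replicate 3, the lowest lung for 5 of the 10 genes, was also the lowest for the B and T cell markers and the highest for the lung markers, and transgenic replicate 1 was the highest for the B and T cell markers and the lowest for the lung markers. For plasmacytoid dendritic cells, strong producers of type I interferon, 5 of 7 marker genes were tested, 2 further probes were above background on no array, and the median difference was 0.04. Neutrophil markers had a median difference of 0.06 and varied most between lungs, with means of -1.31 to 0.15 in wild-type and -1.74 to 0.65 in transgenic lungs. Wild-type replicate 4, with the highest average of the 10 genes, and transgenic replicate 1 were the highest lungs for them. Monocyte, macrophage, NK cell and red cell markers had medians of -0.02, 0.08, 0.19 and 0.00, and of these only 2 of 6 macrophage probes, those of Fabp1 at 0.45 and Siglecf at 0.28, were past the unadjusted threshold. The part of these cells in the values of the interferon-stimulated genes was not tested.

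**Figure D5:**
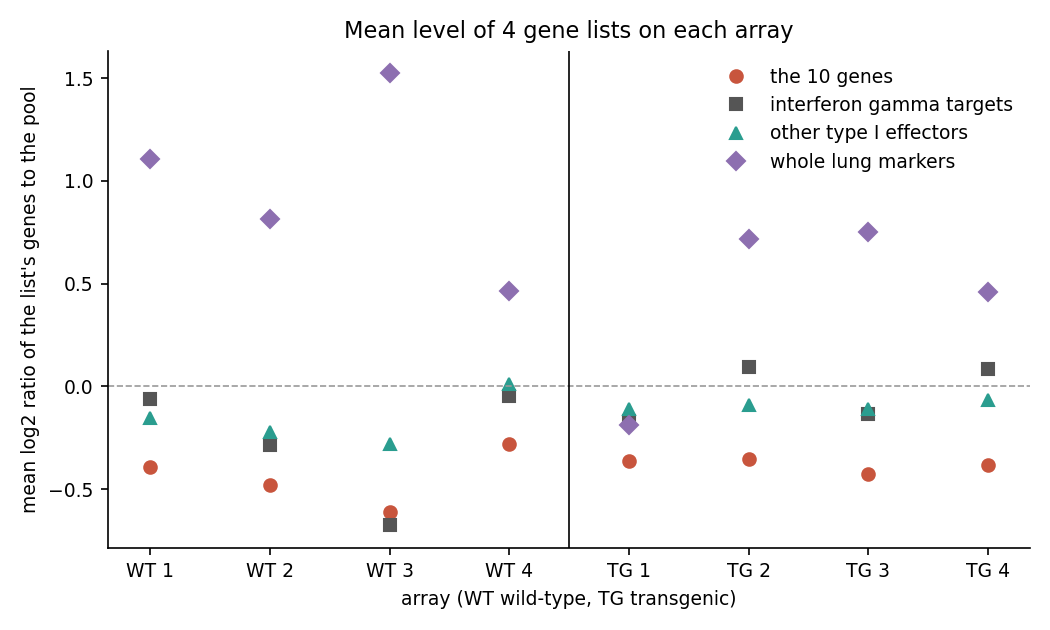
Mean log2 ratio to the pool (y axis) of the genes of 4 lists on each array (x axis, WT wild-type and TG transgenic). Points are means over the brightest probes of the 10 genes, 21 interferon gamma targets, 45 other type I effectors and 6 lung markers. Wild-type replicate 3 is the lowest for the 3 interferon lists and the highest for the lung markers.

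Of 17328 other genes with values on all 8 arrays, those most like the average of the 10 genes over the lungs were Ifi47, Sigirr, Rnf213, Gbp3, Ccnjl, Klra10, Ext2, Gja4, Gsdmd and Batf2. Their Pearson correlation with that average, given as a description over the 8 lungs, ran from 0.97 for Ifi47 to 0.958 for Batf2. Only Ifi47 and Gbp3, both GTPases, were on the interferon lists. Without wild-type replicates 3 and 2, the lungs furthest from the median of that average (wild-type replicate 4 was nearly as far from it as wild-type replicate 2), the correlations of the 10 ran from 0.72 for Batf2 to 0.941 for Ext2.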

How the data were processed

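RNA of 8 lungs, 4 per genotype as the labels group them, was hybridized against a common pool on two-color arrays. The intensities deposited by the authors came from Agilent Feature Extraction, version 10.10.1.1 per the file headers and 11.0.1.1 per the submitters' processing notes, with a log10 ratio of the processed signals beside them per the file headers. A series matrix with log2 values of 40052 probes was deposited too, and for all 39811 probes of a single spot it lies within 0.001 of log2 of the processed signals' ratio. RNA was extracted with miRNeasy per the labels and RNeasy per the methods.

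With limma 3.58.1 under R 4.3.3, median signals less local background were corrected by normexp (offset 50, fitted on unflagged spots). Control and outlier-flagged spots were left out, ratios were normalized by loess within arrays, and spots were averaged per probe. Probes well above background in Cy5 on at least 4 of 8 arrays, with at least 2 values per genotype (32653), were tested by limma's moderated test with Benjamini-Hochberg adjustment, and single genes also by exact two-sided permutation of the genotypes, where 4 against 4 allow no p below 0.0286. The fit was tested on simulated data. The p-values measure the spread between these lungs.

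The 10 genes and all lists were chosen with earlier results of these data known. Genes named from an interferon list have an unadjusted p under 0.05 or are the 2 with the largest difference by brightest probe. Another 21 settings were set out at the start, and 1 more (flagged spots kept) was chosen after seeing the data. Symbols of the 10 genes are those of the matrix, while some list genes were found there under another symbol, such as Ifnl3 under Il28b. Coordinates and promoters are those of RefSeq for GRCm38.p6. Probe positions within genes and the promoters of Mx1 and Usp18 were not analysed here, and 1 motif search is not reported here. Figures used matplotlib 3.10.9 (Python 3.11.15).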

Additional observations from a re-analysis of the deposited data

Results flagged for a closer look

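A lone lung was looked for in 29 groups of 4 lungs, namely the probes of the 10 genes and of Scgb3a2 in each genotype with 4 values. In 2 groups 1 lung stood far from the others, where chance gives about 1 in 20. For Ifit3, wild-type replicate 2 was at -0.28, with the nearest wild-type lung at 0.00, a gap of 0.888 of the group's range. For Ifi44, transgenic replicate 1 was at 0.59, with the nearest transgenic lung at -0.06, a gap of 0.900 of the range. That lung was also the highest for Mx1 and for the B and T cell markers. Neither lung was lone for any other of the 10 genes.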

How the results depend on the processing

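No probe passed the adjusted threshold under any of the 22 alternatives. The median difference of the 10 genes, 0.03, was -0.062 with median-centring and -0.023 with the sample channel alone, and ran from -0.034 to 0.11 with each lung left out in turn, below 0 without wild-type replicate 3 or transgenic replicate 4. The median over all probes was -0.05 with median-centring and -0.04 with the sample channel alone. The number of probes of the 10 genes higher at an unadjusted p under 0.05 was 0 instead of 1 with median-centring, the authors' matrix, the replicate block, the methods' t-test and flagged spots kept, and 0 to 1 with 1 lung left out (0 without wild-type replicate 2 or 3, when Oasl2 had too few values), and 1 was lower with the sample channel alone, that of Ifit3 at -0.38. The median of the 6 other lists, 0.08, was 0.015 with median-centring, 0.039 with the sample channel alone and 0.050 with normexp fitted on all spots, and ran from 0.036 (without wild-type replicate 3) to 0.13 (without wild-type replicate 4) with 1 lung left out. Their 8 probes higher without adjustment became 3 with offset 0, 1 with median-centring, 1 with the sample channel alone, 2 with Agilent's processed signals, 1 with the authors' matrix, 3 with normexp fitted on all spots and 5 with the methods' t-test, and 1 to 18 with 1 lung left out (18 without wild-type replicate 4, 2 without wild-type replicate 2 or 3, 1 without transgenic replicate 2, 5 without transgenic replicate 3). Their 1 lower probe became 2 with median-centring, the replicate block, the slide as a block or the scan day as a block, 0 with Agilent's processed signals, the authors' matrix, normexp fitted on all spots or flagged spots kept, and 0 to 2 with 1 lung left out.

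Small differences changed sign. Irf7 was 0.0040 with offset 0 and 0.027 with Agilent's processed signals and the authors' matrix, and Usp18 was 0.0092 with the latter settings. Isg15 was -0.062 with median-centring, -0.085 with the sample channel alone and -0.049 with normexp fitted on all spots. Mx1 was -0.012 with median-centring, Rsad2 -0.023 with the sample channel alone and Ifit1 0.17 with normexp fitted on all spots. With 1 lung left out, Ifit1 ran from -0.21 to 0.11, Ifit2 from -0.11 to 0.084, Isg15 from -0.061 to 0.11, Irf7 from -0.11 to 0.11, Mx1 from -0.050 to 0.19 and Usp18 from -0.056 to 0.060. Ifi44 was 0.63 with the sample channel alone. The cause was not tested. Direction was kept under every alternative that gave a value by Ifit3, Ifi44, Oasl2 and Scgb3a2.

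Same-numbered lungs of the genotypes correlated at 0.324, 0.247, -0.0849 and -0.21 in their deviations from the group means. Of the wild-type lungs, 2 of 4 matched their own number best, so the number alone does not pair the lungs. These were replicates 1 and 2, which shared a slide with their own number. Wild-type replicate 3 matched transgenic replicate 4 best, its slide mate. Wild-type replicate 4 matched transgenic replicate 2 best, which was on another slide. The replicate block gave 885 probes under an unadjusted p of 0.05, against 683 without it, and 0 after adjustment. The methods' t-test gave 864 probes under an unadjusted p of 0.05 and 0 after Benjamini-Hochberg adjustment. With a fold above 1.5 required as well, it called 27 probes, of which 0 belong to the 10 genes. The slide as a block gave 1211, the sample channel alone 301, normexp fitted on all spots 392 and 1 lung left out 485 to 1174 (1174, 1075 and 1033 without wild-type replicate 4, transgenic replicate 1 and transgenic replicate 4), each with 0 after adjustment. The signal over background and the 4 lungs per genotype limit what could be detected.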
